A study of Homo sapiens with 16 samples.

Results

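A set of 9 genes of the neural crest and Schwann cell program linked to a drug tolerant melanoma state was followed in A375 xenograft tumors: CDH19, A2M, RXRG, S100B, NGFR, GFRA2, AQP1, GAP43 and SOX2. They are 9 of the 23260 gene symbols in the deposited table, taken by symbol. The set was drawn up for this state with results of these tumors known. CDH19, A2M and RXRG in particular were selected on their values in the tumors given both drugs, so their levels in those tumors are given as a description, with no test. For all 9 genes the comparison of tumors given both drugs with control tumors is likewise a description. A375 is a human melanoma cell line with mutant BRAF, and its cells were injected on both flanks of NOD/Scid/IL2γR-/- (NOG) mice, which lack functional T, B and NK cells. Tumors of 4 groups were taken on day 5 of treatment. J+V mice received JQ1, an inhibitor of the BET bromodomain proteins, at 50 mg/kg daily together with Vemurafenib, an inhibitor of mutant BRAF, at 25 mg/kg per dose, given 2 times a day. J mice received the same JQ1 alone, V mice the same Vemurafenib alone, and control mice the vehicle. Each group held 4 tumors from 2 mice, a left (L) and a right (R) flank tumor per mouse, so 16 tumors came from 8 mice. All tumors thus carried the same injected line, and tumors of 1 mouse are not independent animals.

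Melanocytes and Schwann cells both descend from the neural crest, a migratory embryonic cell population. Melanoma cells under inhibition of BRAF or MEK can take on a slow-cycling state with crest and glial genes, known for high NGFR, AQP1, GFRA2 and RXRG, in which the retinoid receptor RXRG is regarded as a driver. CDH19 is a cadherin of Schwann cell precursors, S100B a calcium-binding protein of glia and melanocytic cells, A2M a secreted protease inhibitor, GAP43 a growth cone phosphoprotein of neurons and Schwann cells, and SOX2 a transcription factor of stem and glial progenitor cells. NGFR is the low-affinity neurotrophin receptor, GFRA2 the coreceptor that presents neurturin to the RET kinase, and AQP1 a water channel.

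Levels are FPKM (fragments mapped to a gene, scaled to the length of its transcripts and to all mapped fragments of the tumor), a unit per transcript length, so genes can be set side by side. Differences are in log2(FPKM + 0.5), a scale that understates the change of low genes, and come from limma, fitted across every gene that reached 1 FPKM in 4 or more of the 16 tumors. That filter kept 13426 symbols and 8 of the 9 genes, all but GFRA2. RXRG reached 1 in only 6 tumors, 2 of them outside J+V, and so was kept through its J+V level. Read depth is not known from FPKM. The summed FPKM per tumor ran between 970443 and 1406986, and symbols at 1 or more between 12563 and 12991. Small nucleolar RNAs took between 49.7% and 57.0% of the sum in J+V tumors and between 38.0% and 49.3% in control tumors, and scaling the tumors to equal sums shifted the median difference of all genes between J+V and control tumors to -0.22, against -0.03 as deposited. Of 10 melanocyte genes used to check the label, 7 (TYR, TYRP1, DCT, PMEL, OCA2, GPR143 and TRPM1) stayed below 1 in every tumor, while MITF averaged 9.85 ± 1.99 in J+V, 9.30 ± 0.70 in J, 8.64 ± 1.86 in V and 8.27 ± 0.93 FPKM in control tumors (SD, n = 4 each).

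The members split into 4 genes that were highest in J+V tumors and 5 that were not. CDH19, A2M, S100B and RXRG stood higher in each of the 4 J+V tumors than in any of the 12 other tumors. The share of all genes that did so was not counted, and CDH19, A2M and RXRG were selected on their J+V values. Nothing particular to the 4 genes is read from this separation. NGFR, AQP1, GAP43 and SOX2 overlapped between J+V and control tumors, and GFRA2 was near 0 throughout.

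**Figure D1:**
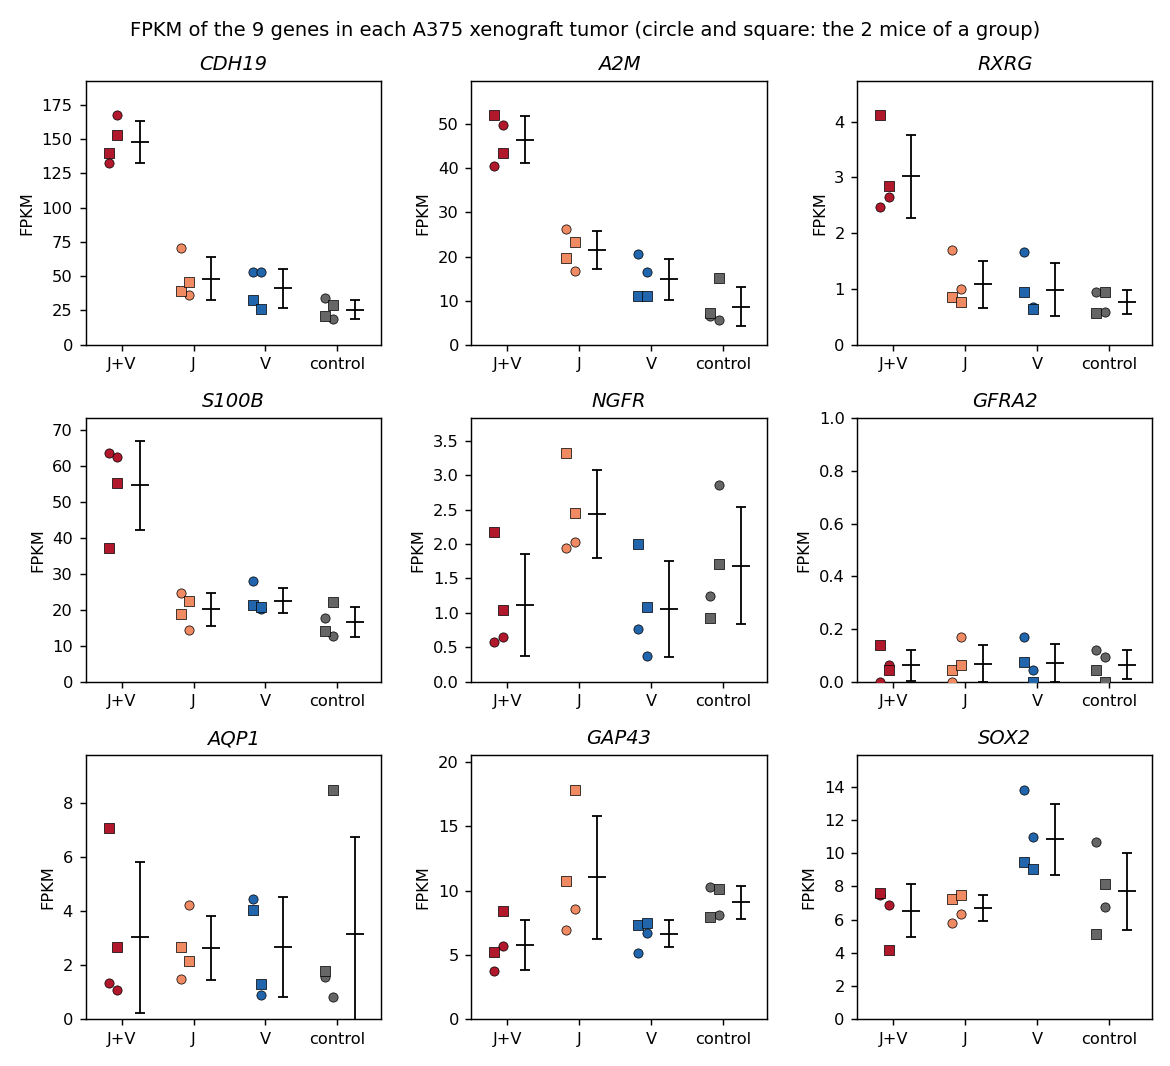
FPKM (y axis, from 0) of each of the 9 genes in each tumor, with J+V, J, V and control along the x axis. Each point is 1 tumor, circles and squares are the 2 mice of a group, and the bar beside the points is the mean ± SD of 4 tumors. The J+V points of CDH19, A2M, RXRG and S100B lie above all other points of their panel, and the GFRA2 axis runs to 1 FPKM although no tumor passed 0.171.

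CDH19 (chr18:64168320-64271375, minus strand, build GRCh37) was the most abundant of the 9 genes. Its J+V tumors held 132 (33L), 167 (33R), 140 (34L) and 153 (34R) FPKM. The J tumors held 70.7, 36.4, 39.5 and 45.6 FPKM, the V tumors 52.9, 53.1, 32.7 and 25.8 FPKM, and the control tumors 34.0, 18.4, 20.9 and 29.1 FPKM. The lowest J+V tumor was thus well clear of the highest tumor of any other group, J tumor 26L. The mean was 148 ± 15.3 FPKM in J+V and 25.6 ± 7.20 FPKM in control tumors (SD, n = 4 each), a ratio of 5.79 and a difference of 2.55 ± 0.25 (SE) in log2(FPKM + 0.5). In both J+V mice the mean of the flank tumors was nearly the same, 150 FPKM in mouse 33 and 146 FPKM in mouse 34.

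A2M (chr12:9220260-9268825, minus strand) had the pattern nearest to that of CDH19. It stood at 40.5, 49.9, 52.0 and 43.5 FPKM in J+V tumors. The J tumors had 26.3, 16.6, 19.7 and 23.2 FPKM, the V tumors 20.7, 16.4, 10.96 and 11.1 FPKM, and the control tumors 6.41, 5.61, 7.24 and 15.2 FPKM. All J tumors were above all control tumors, and the 5R control tumor stood apart from the other 3. Means were 46.5 ± 5.38 FPKM in J+V and 8.61 ± 4.44 FPKM in control tumors, a ratio of 5.40 and a difference of 2.47 ± 0.26. Antisense genes are annotated across A2M, NGFR and GFRA2, and other genes on the same strand overlap AQP1, GAP43 and SOX2. Since the sources do not say whether strand was used in counting, reads of an antisense pair cannot be told apart, and the values of all 6 genes are uncertain in this respect.

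S100B (chr21:48018517-48025121, minus strand) followed with 63.7, 62.5, 37.1 and 55.1 FPKM in J+V tumors. The J tumors had 24.7, 14.3, 18.9 and 22.4 FPKM, the V tumors 27.9, 20.2, 21.2 and 20.9 FPKM, and the control tumors 17.7, 12.7, 14.1 and 22.2 FPKM. The lowest J+V tumor was 34L, still above every J, V and control tumor. The J+V mean of 54.6 ± 12.3 FPKM was 3.28 times the control mean of 16.7 ± 4.23 FPKM, a difference of 1.68 ± 0.20.

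RXRG (chr1:165370159-165414592, minus strand) showed the same order at a much lower level. J+V tumors had 2.47, 2.65, 4.11 and 2.84 FPKM, while 10 of the other 12 tumors were below 1. Tumors of the J group had 1.70, 0.992, 0.857 and 0.764 FPKM, those of the V group 1.66, 0.684, 0.941 and 0.645 FPKM, and control tumors 0.945, 0.580, 0.561 and 0.952 FPKM. The ratio of means was 3.97 (3.02 ± 0.75 in J+V against 0.759 ± 0.218 FPKM in control tumors), and the difference of 1.48 ± 0.22 shows how the pseudocount of 0.5 compresses a gene at this level. The highest J and V tumors, 26L and 16L, were also the highest or second highest tumors of their group for CDH19, A2M and S100B.

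Promoter sequences were available for CDH19 and RXRG, which were both highest in J+V tumors, and for SOX2, which was not. The 250 bases upstream of each gene's start are shown, 5′ to 3′ on the gene's strand, as given by RefSeq on GRCh38.p14 (CDH19 chr18:66604091-66604340, RXRG chr1:165445127-165445376, SOX2 chr3:181711675-181711924). Capitals mark matches on either strand to the 6-letter or 7-letter motifs that were searched.
CDH19: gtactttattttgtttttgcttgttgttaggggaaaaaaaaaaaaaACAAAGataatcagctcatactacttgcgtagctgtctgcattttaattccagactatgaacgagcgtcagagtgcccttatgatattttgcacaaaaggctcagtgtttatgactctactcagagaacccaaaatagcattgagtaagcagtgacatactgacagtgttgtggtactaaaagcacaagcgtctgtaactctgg
RXRG: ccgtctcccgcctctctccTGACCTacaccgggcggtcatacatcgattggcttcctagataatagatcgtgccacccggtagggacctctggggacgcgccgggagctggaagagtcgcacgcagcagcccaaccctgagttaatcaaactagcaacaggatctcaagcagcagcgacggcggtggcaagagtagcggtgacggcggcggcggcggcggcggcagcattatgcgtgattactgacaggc
SOX2: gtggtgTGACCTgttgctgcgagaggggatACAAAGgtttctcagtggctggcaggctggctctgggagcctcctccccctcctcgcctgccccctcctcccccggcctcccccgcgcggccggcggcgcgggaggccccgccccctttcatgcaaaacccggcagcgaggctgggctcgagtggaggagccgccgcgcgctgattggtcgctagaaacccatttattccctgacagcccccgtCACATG
The motifs searched were ACAAAG and AACAAT (SOX factors), AGGTCA (the half-site of retinoid receptors), CATGTG (the E-box bound by MITF), GGAATG (TEAD), TGAGTCA (AP-1) and TATAAA (the box that binds TBP). The CDH19 stretch held a single match, ACAAAG at 204 bases before the start, a motif found in 13.7% of 35116 RefSeq promoter stretches of this length. The RXRG stretch held a single AGGTCA on the opposite strand, 231 bases before the start (12.1% of stretches), and so reads TGACCT as printed. The SOX2 stretch held ACAAAG and, on the opposite strand, both AGGTCA and CATGTG, the last of which 9.42% of stretches hold. The higher genes CDH19 and RXRG had no motif in common in this window, and each of their motifs also stood in the SOX2 stretch. The GC content was 38.0% for CDH19, 62.0% for RXRG and 68.8% for SOX2. Of the 9 genes 5 had an entry. AQP1 held ACAAAG on the opposite strand and TATAAA (10.7% of stretches) 30 bases before its start, and GAP43 held AACAAT (8.98%) and CATGTG. No stretch of the 5 held GGAATG (11.9%) or TGAGTCA (4.20%).

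The receptors did not share the J+V pattern. NGFR (chr17:47572655-47592370, plus strand) was at 0.577, 0.655, 2.17 and 1.04 FPKM in J+V tumors and at 1.94, 2.02, 3.33 and 2.45 FPKM in J tumors. V tumors had 0.765, 0.372, 2.01 and 1.09 FPKM and control tumors 1.24, 2.86, 0.932 and 1.71 FPKM. J tumors were the highest group on average, and 3 of the 4 J+V tumors lay below every J tumor. The difference between J+V and control tumors was -0.46 with a 95% interval between -1.18 and 0.26. GFRA2 (chr8:21547910-21669869, minus strand) was listed between 0 and 0.140 FPKM in J+V, between 0 and 0.168 in J, between 0 and 0.171 in V and between 0 and 0.121 in control tumors, with 1 tumor listed at 0 in each group. No difference in GFRA2 was detectable at these levels.

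AQP1 (chr7:30951468-30965132, plus strand) varied more within groups than between them. It was at 1.32, 1.05, 7.08 and 2.65 FPKM in J+V tumors and 1.46, 4.23, 2.65 and 2.13 FPKM in J tumors. The V tumors had 4.46, 0.895, 4.04 and 1.28 FPKM and the control tumors 1.54, 0.809, 1.78 and 8.49 FPKM. The flank tumors of 1 mouse differed by up to 1.98 in log2(FPKM + 0.5), in control mouse 5, and the 95% interval of the difference between J+V and control tumors ran between -1.18 and 1.33. The tumors highest in AQP1, control 5R and J+V 34L, also had the highest summed FPKM of 8 fibroblast markers, 136 and 131, and the V tumors with more AQP1, 16L and 19L, had 96.7 and 126, against 74.8 and 66.9 in the other flank of the same mice. The part of these markers in the AQP1 values was not tested.

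GAP43 (chr3:115342357-115440337, plus strand) had lower means in J+V and V than in control tumors, the other way from CDH19, but a higher mean in J tumors. J+V tumors had 3.71, 5.65, 5.23 and 8.38 FPKM and J tumors 6.92, 8.58, 10.8 and 17.9 FPKM. V tumors had 5.12, 6.70, 7.29 and 7.44 FPKM, each below the lowest control tumor, and control tumors 10.3, 8.06, 7.91 and 10.1 FPKM. Of the J+V tumors only 34R reached into the control range. The difference between J+V and control tumors was -0.66 ± 0.24. SOX2 (chr3:181429713-181432224, plus strand) was at 7.49, 6.89, 7.58 and 4.16 FPKM in J+V tumors and at 5.79, 6.31, 7.23 and 7.50 FPKM in J tumors. V tumors held 13.8, 10.99, 9.47 and 9.08 FPKM and control tumors 10.7, 6.79, 5.15 and 8.15 FPKM, so that every V tumor was above every J+V and every J tumor. J+V and control tumors differed by -0.21 (95% interval between -0.64 and 0.22). SOX2 lies inside the longer noncoding gene SOX2-OT on the same strand, whose mean FPKM was 0.765 in J+V, 0.469 in J, 0.780 in V and 0.244 in control tumors.

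Set against control tumors, the differences of the 8 genes in the fit are a description throughout. They were positive for CDH19, A2M, S100B and RXRG and negative for GAP43, NGFR and SOX2, and that of AQP1 was close to 0. Over all 13426 genes, 16.6% were called higher and 20.5% lower in J+V tumors (adjusted p below 0.05, Benjamini-Hochberg). The median difference of the 8 genes was 0.78, against -0.03 over all genes. It holds CDH19, A2M and RXRG, which were selected on their J+V values. Nothing about the set is therefore read from this median. The split of all calls depended on the scaling: 2223 were higher and 2756 lower on the deposited values, 820 and 4726 after rescaling to a common sum, and 2720 and 2431 after upper quartile scaling. The signs of the CDH19, A2M, RXRG, S100B and GAP43 differences were the same under each scaling.

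**Figure D2:**
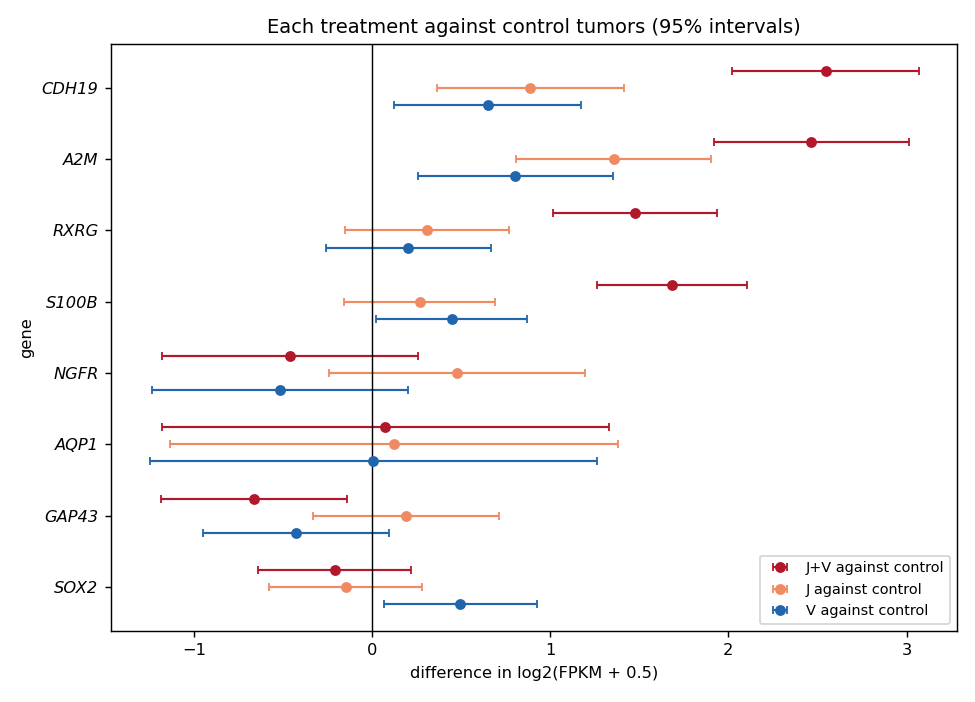
Difference in log2(FPKM + 0.5) between J+V (red), J (orange) or V tumors (blue) and control tumors for the 8 genes in the fit, with 95% intervals from limma. For CDH19, A2M, RXRG and S100B the J+V point lies to the right of both single-drug points, and the AQP1 intervals span 0 on both sides.

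Each drug alone was then compared with control, to see what JQ1 and Vemurafenib did singly. The groups compared hold no J+V tumor but share the control tumors with the known contrast. Genes known to be higher in J+V than in control tumors may have control tumors that are low by chance. The p values of the 8 genes here, above all those of CDH19, A2M and RXRG, are thus no independent support. All 16 tumors entered 1 fit with a shared estimate of the spread, so J+V tumors enter these p values through it. No gene of the 8 was called with either drug, and none of all 13426 genes was either (0% called in both comparisons by limma, with unadjusted p below 0.05 in 8.49% of genes for J and 16.1% for V). That absence of calls rested on single tumors: without control tumor 5R limma called 101 genes for J and 423 for V, without mouse 5 it called 76 and 198, and without V tumor 19R it called 177 for V. A2M was 2.49 times higher in J (21.5 ± 4.22 FPKM) than in control tumors, a difference of 1.36 ± 0.26 with an unadjusted p of 9.33e-05 and an adjusted p of 0.177 (limma), and all 4 J tumors were above all control tumors. Without control tumor 5R the adjusted p of A2M became 0.00443 in J and 0.0238 in V against control, and without mouse 5 it became 0.00745 and 0.0314, in the same fits that called those other genes. CDH19 was also higher in all 4 J tumors, by 0.89 ± 0.25 (adjusted p = 0.294, limma). In V tumors A2M differed from control by 0.80 ± 0.26 (adjusted p = 0.173), CDH19 by 0.65 ± 0.25 (adjusted p = 0.224), SOX2 by 0.50 ± 0.20 (adjusted p = 0.252) and S100B by 0.45 ± 0.20 (adjusted p = 0.287), by limma throughout. Those 4 genes had an unadjusted p below 0.05 in V tumors, and A2M and CDH19 had one in J tumors.

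Between the single drugs none of the 8 genes was called, where limma called 0.127% of all genes higher and 0.156% lower in J than in V tumors. NGFR was higher in J tumors by 0.99 ± 0.34, with 3 of the 4 J tumors above every V tumor and an adjusted p of 0.245 (limma). SOX2 differed by -0.64 ± 0.20 without overlap between the groups (adjusted p = 0.216, limma). GAP43 differed by 0.62 ± 0.24 and A2M by 0.55 ± 0.26, both with an unadjusted p below 0.05 and an adjusted p above the threshold.

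The combination was next set against each drug alone. These contrasts share the J+V tumors with the known one, so CDH19, A2M and RXRG get no p here. The p values of the other genes, here and for the interaction, come from tumors whose results were known when the set was drawn up. They are no independent support for the set. Against J tumors, S100B was higher in J+V tumors by 1.42 ± 0.20 (54.6 ± 12.3 against 20.1 ± 4.51 FPKM, adjusted p = 0.000325, limma), and higher in 4 of 4 J+V tumors than in any J tumor. GAP43 was lower (-0.85 ± 0.24, 5.74 ± 1.95 FPKM in J+V against 11.03 ± 4.82 FPKM in J tumors, adjusted p = 0.0194, limma), with 3 of 4 J+V tumors below every J tumor. That call was lost in 6 of the 24 fits that left out a tumor or mouse and in 2 of the 12 other settings, among them without mouse 29, which held the highest J tumor (-0.45, adjusted p = 0.233), without mouse 33 (adjusted p = 0.170), with 1 mean per mouse (adjusted p = 0.0811) and when only the J+V and J tumors were fitted (adjusted p = 0.0594). NGFR differed by -0.94 ± 0.34 and missed the threshold (adjusted p = 0.0509, limma). It passed in 9 of the 24 fits that left out a tumor or mouse, with the lowest adjusted p without tumor 34L, the highest J+V tumor (0.0120), and in 3 of the 11 other settings, among them when the same 8 tumors alone were fitted (adjusted p = 0.0350). SOX2 (-0.06 ± 0.20) and AQP1 (-0.05 ± 0.59) were not called. As a description, CDH19 was 3.08 times, RXRG 2.80 times and A2M 2.17 times as high in J+V as in J tumors. Over all genes 8.67% were called higher and 18.4% lower, 3628 in all, a count that fell to 1135 without mouse 29, 1420 without mouse 33 and 1576 without mouse 26.

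Against V tumors, S100B was again higher in J+V tumors, by 1.24 ± 0.20 (54.6 ± 12.3 against 22.6 ± 3.57 FPKM, adjusted p = 0.00182, limma). SOX2 was lower by the same test (-0.71 ± 0.20, 6.53 ± 1.61 FPKM in J+V against 10.8 ± 2.16 FPKM in V tumors, adjusted p = 0.0329, limma), and all 4 J+V tumors were below all 4 V tumors. The SOX2 call was lost in 11 of the 24 fits that left out a tumor or mouse, with the highest adjusted p without mouse 16 (-0.51, adjusted p = 0.182, limma), and in 3 of the 12 other settings, among them with 1 mean per mouse (adjusted p = 0.0937). GAP43 (-0.23 ± 0.24), NGFR (0.06 ± 0.34) and AQP1 (0.07 ± 0.59) were not called. CDH19 was 3.60 times, A2M 3.14 times and RXRG 3.07 times as high in J+V as in V tumors, as a description. Over all genes 4.99% were called higher and 8.31% lower, 1786 in all, a count that fell to 234 with 1 mean per mouse, 322 without mouse 33 and 420 without mouse 19. The S100B calls against J and against V tumors passed the threshold in all 36 alternative settings in which each was fitted. Those settings do not bear on how the set was chosen.

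**Figure D3:**
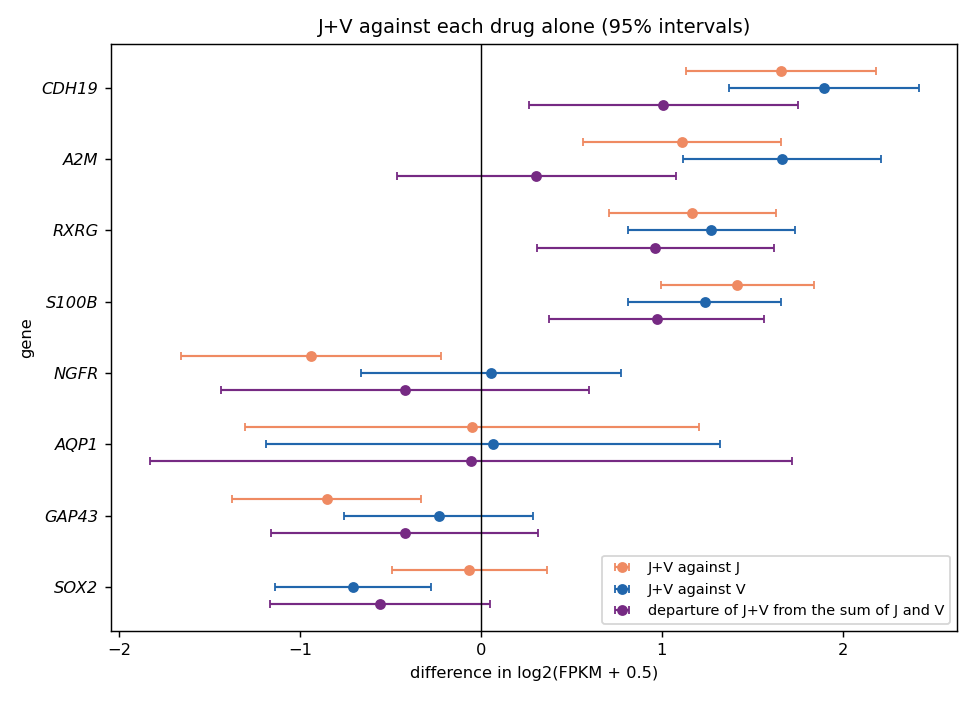
Difference in log2(FPKM + 0.5) of J+V tumors from J (orange) and from V tumors (blue), and the interaction of the drugs (purple), for the 8 genes in the fit, with 95% intervals. S100B lies right of 0 in all 3, while GAP43 lies left of 0 against J tumors and SOX2 left of 0 against V tumors.

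A term for the interaction of the drugs asked whether the combination did more than both drugs added on the log2 scale. No gene was called over all 13426 (0% by limma, with 12.6% at an unadjusted p below 0.05). S100B departed from additivity by 0.97 ± 0.28 (adjusted p = 0.178, limma), and passed without tumor 34L (adjusted p = 0.0450) or mouse 34 (adjusted p = 0.0316), fits in which 125 and 360 genes were called over all. As a description, CDH19 departed by 1.01 ± 0.35, RXRG by 0.97 ± 0.31 and A2M by 0.31 ± 0.36. Leaving out a tumor or mouse, CDH19 ran between 0.58 and 1.44 and A2M between -0.074 and 0.69. SOX2 (-0.56 ± 0.29), GAP43 (-0.42 ± 0.35), NGFR (-0.42 ± 0.48) and AQP1 (-0.05 ± 0.83) had intervals that included 0.

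Likeness of profile was measured as the mean absolute difference, over the 16 tumors, of log2(FPKM + 0.5) centred on each gene's own mean, so that a smaller value means a closer match. It is a description, and the tumors share their groups. The 4 genes highest in J+V tumors lay close together: CDH19 and A2M differed by 0.28 per tumor, RXRG and S100B by 0.30, CDH19 and S100B by 0.37, and the widest of their pairs, A2M and S100B, by 0.42. These 4 genes were grouped by their high J+V levels, which enter the measure, so their closeness is no separate result. Among NGFR, AQP1, GAP43 and SOX2 the distances ran between 0.46 (NGFR and GAP43) and 0.79 (AQP1 and GAP43). Pairs across these sets ran between 0.70 (RXRG and SOX2) and 1.17 (CDH19 and NGFR), a range that overlaps the one among NGFR, AQP1, GAP43 and SOX2. Among 8737 genes with a mean FPKM of at least 5, A2M and the growth factor gene HGF (0.33) were among the closest to CDH19, against a mean absolute deviation of 0.84 for CDH19 itself. The closest to A2M were MGP, which encodes matrix Gla protein (0.25), CDH19, and the transporter gene ABCA6 (0.30). MGP averaged 78.7 FPKM in J+V, 32.5 in J, 22.4 in V and 13.1 in control tumors. RXRG was closest to AGMO (0.19), LOXL4 (0.19) and ABCA8 (0.19), and S100B to the sulfate transporter gene SLC26A2 (0.19), CSGALNACT1 (0.21) and AFAP1L2 (0.21).

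The remaining genes had other neighbours. NGFR was closest to MYOF (0.28), the cadherin gene CDH13 (0.28) and the matrix metalloproteinase gene MMP2 (0.30), each with its highest mean in J tumors and its lowest in J+V tumors. GAP43 was closest to LPXN (0.19), UCN2 (0.20) and the CDK inhibitor gene CDKN1A (0.21), the last at 5.20 FPKM in J+V, 10.2 in J, 7.48 in V and 9.99 in control tumors. SOX2 was closest to HOXC10 (0.20), FOXC1 (0.21) and GSTM4 (0.21), not much nearer than its own mean absolute deviation of 0.30. AQP1 had no close neighbour, the nearest being the collagen genes COL6A3 (0.39) and COL8A1 (0.40) and S100A4 (0.41), against a deviation of 0.71.

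Other neural crest regulators moved in both directions. Of 22 listed crest genes 17 were in the fit, and in J+V against control tumors limma called 8 higher and 4 lower (16.6% and 20.5% of all genes), with a median difference of 0.38, against -0.03 over all genes. This list, like the others used here, was drawn up with earlier results of these tumors known. Its counts, median and p values are no independent support for a crest program. ERBB3, the neuregulin receptor of crest and Schwann cell precursors, was higher (38.9 ± 9.14 against 14.7 ± 3.83 FPKM, 1.38 ± 0.17, adjusted p = 5.5e-05, limma). The early crest factor FOXD3 was higher by 0.78 ± 0.17 (5.38 ± 1.20 against 2.92 ± 0.68 FPKM), and TFAP2A, a factor of crest and melanocyte development, by 0.63 ± 0.18, a call lost without mouse 2 or mouse 33. The homeobox gene MSX1 was lower (-2.20 ± 0.26, 2.55 against 13.7 FPKM), and so were SOX9 (-1.47 ± 0.29, 4.35 ± 1.97 against 12.5 ± 3.01 FPKM) and the adhesion gene L1CAM (-0.997 ± 0.33), the last call lost without mouse 2 or mouse 33. SOX10, the factor that specifies both glia and melanocytes, was at 15.9 ± 3.58 FPKM in J+V, 12.5 ± 1.35 in J, 12.9 ± 0.75 in V and 12.2 ± 3.70 in control tumors, a difference of 0.38 ± 0.17 from control that was not called (adjusted p = 0.0873, limma). With either drug alone none of the 17 was called, and none of all 13426 genes was either (0%). Against J tumors 7 were higher and 3 lower in J+V tumors (8.67% and 18.4% of all genes), and against V tumors 3 were higher and 3 lower (4.99% and 8.31% of all genes). Leaving out each mouse in turn left between 6 and 9 higher and between 3 and 5 lower against control, between 4 and 7 and between 2 and 4 against J, and between 1 and 5 and between 0 and 3 against V.

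**Figure D4:**
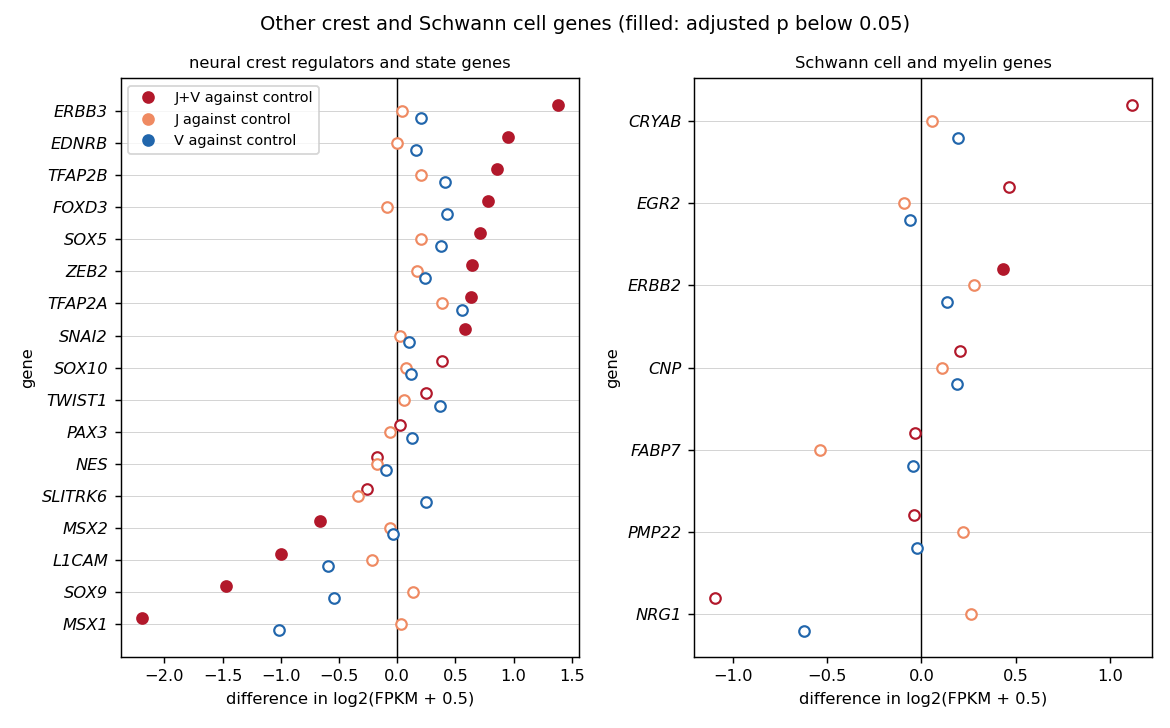
Difference in log2(FPKM + 0.5) of J+V (red), J (orange) and V tumors (blue) from control tumors for the measured genes of the neural crest list (left) and of the Schwann cell and myelin list (right), ordered by the J+V difference. Filled points have an adjusted p below 0.05 by limma. ERBB3 is among the filled higher genes on the left, where MSX1 and SOX9 lie lowest, and ERBB2 is the only gene with a filled J+V point on the right.

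Schwann cell and myelin genes were counted in the same way. Of 13 listed, 7 were in the fit, and ERBB2, the receptor that pairs with ERBB3, was the only one called in J+V against control tumors, where 16.6% of all genes were called higher (0.43 ± 0.16, 4.96 ± 0.95 against 3.61 ± 1.17 FPKM, adjusted p = 0.0419, limma). The median difference of the 7 was 0.21, against -0.03 over all genes, in a list that was also drawn up with earlier results known. The ERBB2 call was lost after rescaling to a common sum (adjusted p = 0.179, limma) and without mouse 2, 26, 29 or 33, and leaving out each mouse in turn left between 0 and 2 genes higher and between 0 and 1 lower. Against J tumors 1 gene was called higher and none lower, where limma called 8.67% of all genes higher and 18.4% lower. It was FABP7, a fatty acid binding protein of glial precursors, which is named after its values were seen (0.50, adjusted p = 0.0122, limma). The FABP7 call was lost without mouse 26 or 29. Against V tumors none was called, where 4.99% of all genes were called higher and 8.31% lower. Nothing particular to this short list is read from these counts. MBP, PRX and MAG, which encode myelin proteins, were below 1 in every tumor, and their summed FPKM ran between 0.347 and 0.536 in J+V, between 0.121 and 0.368 in J, between 0.246 and 0.546 in V and between 0.168 and 0.610 in control tumors. In bulk tumors a larger share of cells with a program and more RNA per cell cannot be told apart.

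Most genes of the ligands and receptors related to NGFR and GFRA2 were below the filter. Of 15 neurotrophin and GDNF family genes 3 were in the fit. NTRK3 averaged at most 0.0469 FPKM in any group and RET at most 0.0117, and NTF3, GDNF and NRTN were also below the filter. NTRK2, the BDNF receptor, averaged 0.462 ± 0.240 FPKM in J+V, 0.123 ± 0.0523 in J, 0.152 ± 0.0427 in V and 0.104 ± 0.0383 in control tumors, below the filter and so not tested. BDNF was at 3.49 ± 0.89 FPKM in J+V, 6.07 ± 0.49 in J, 4.40 ± 1.20 in V and 4.45 ± 1.44 in control tumors, lower in J+V than in J tumors (-0.74 ± 0.20, adjusted p = 0.0141, limma, a call lost without mouse 26, 29 or 33) and not called against control (adjusted p = 0.262, limma). SORT1, the sorting receptor that pairs with NGFR, was higher in J+V than in control tumors by 0.58 ± 0.10 (adjusted p = 0.000748, limma).

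Relatives of the 9 genes were read in J+V against control tumors, where 16.6% of all genes were called higher and 20.5% lower. Nothing particular to these short lists is read from their counts. Among 15 retinoid genes 10 were in the fit and 1, the retinoic acid receptor gene RARB, was called higher in J+V against control tumors (0.61 ± 0.16, adjusted p = 0.00771, limma), a call lost after rescaling to a common sum (adjusted p = 0.0617). The other RXR genes were not called: RXRA was at 1.05 ± 0.16 FPKM in J+V and 1.19 ± 0.31 FPKM in control tumors, and RXRB at 4.83 ± 1.02 FPKM in J+V and 4.46 ± 1.71 FPKM in control tumors. Of 14 other S100 genes 9 were in the fit, none was higher and 4 were lower: S100A2 (-1.11 ± 0.24), S100A11 (-0.58 ± 0.08), S100A10 (-0.54 ± 0.19) and S100A13 (-0.47 ± 0.16). The S100A10 call was lost after upper quartile scaling (adjusted p = 0.0559, limma) and quantile normalization (adjusted p = 0.101) and without 5 of the 8 mice, and the S100A13 call without mouse 5 or mouse 33. Of 13 other SOX genes 4 were in the fit and 1, SOX11, was lower (-0.75 ± 0.21), a call lost without mouse 2 or mouse 33. Of the growth cone genes beside GAP43, 6 of 7 were in the fit and TUBB3, a neuronal tubulin, was lower (-0.46 ± 0.16), a call lost after upper quartile scaling (adjusted p = 0.0516, limma) and quantile normalization (adjusted p = 0.0828) and without 5 of the 8 mice. The A2M receptor gene LRP1 was at 5.95 ± 1.58 FPKM in J+V and 4.14 ± 1.74 FPKM in control tumors and was not called (0.51 ± 0.21, adjusted p = 0.0661, limma), and neither of the 2 other aquaporins in the fit was called.

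Marker lists of other cell types were read beside these results. All 8 fibroblast markers were in the fit, and their summed FPKM ran between 71.0 and 131 in J+V, between 69.2 and 89.1 in J, between 66.9 and 126 in V and between 44.3 and 136 in control tumors. LUM (1.61 ± 0.29), DCN (1.67 ± 0.46) and PDGFRB (0.72 ± 0.22) were called higher in J+V against control tumors, where 16.6% of all genes were. Against J tumors none of the 8 was called, where limma called 8.67% of all genes higher and 18.4% lower. Against V tumors only LUM was called higher, where 4.99% of all genes were. That LUM call was lost after rescaling to a common sum (adjusted p = 0.0688, limma) and without 5 of the 8 mice. Nothing about the share of fibroblasts is read from these counts. The PDGFRB call was lost after rescaling to a common sum (adjusted p = 0.0533, limma) and without mouse 2, 33 or 34, and the DCN call without mouse 2 or mouse 34. Control tumor 5R, the highest control tumor for A2M, AQP1 and S100B, had the highest fibroblast sum of all 16 tumors. None of 8 endothelial markers was in the fit, and PECAM1, CDH5, VWF, TEK and CLDN5 were below 1 in every tumor. Of 10 proliferation genes limma called all 10 lower in J+V against control tumors, against J and against V tumors. Over all genes it called 20.5%, 18.4% and 8.31% lower in these comparisons. The largest differences from control were those of PLK1 (-2.04 ± 0.21), RRM2 (-1.64 ± 0.18), AURKA (-1.60 ± 0.17) and CCNA2 (-1.50 ± 0.22). Leaving out each mouse in turn left all 10 lower against control, between 8 and 10 against J and between 5 and 10 against V. The summed FPKM of the 10 genes ran between 149 and 306 in J+V and between 456 and 681 in control tumors. The part of these markers in the values of the 9 genes was not tested, and whether any step removed reads of the mouse host is stated nowhere in the sources used.

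**Figure D5:**
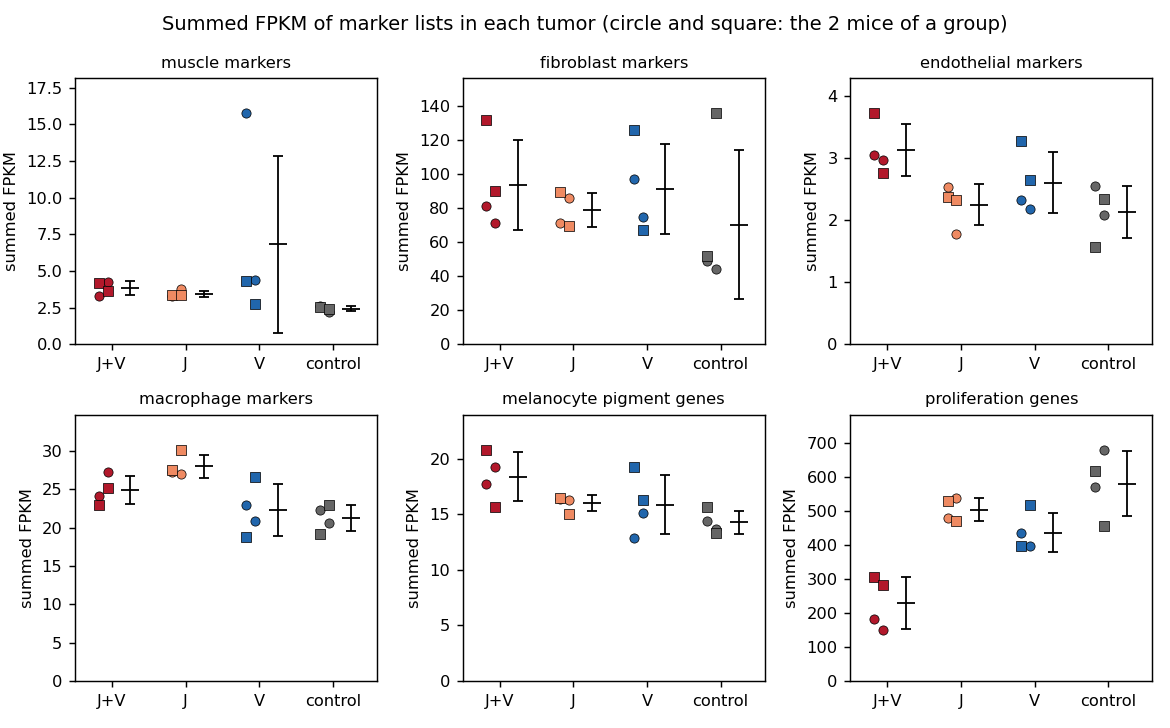
Summed FPKM (y axis, from 0) of 6 marker lists in each tumor, with J+V, J, V and control along the x axis; circles and squares are the 2 mice of a group and the bar is the mean ± SD of 4 tumors. Proliferation genes were lowest in J+V tumors, while the fibroblast sum was high in single tumors of the J+V, V and control groups.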

How the data were processed

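RNA of 16 tumors was made into libraries after removal of ribosomal RNA with RiboZero (ScriptSeq v2 kit), and the authors deposited FPKM values for 23260 gene symbols. The submitters' processing notes name bcl2fastq, TopHat and Cufflinks, without versions, and the build hg19. The annotation and the use of strand are not stated there or in the paper. The lowest FPKM values had no common step, so whole reads could not be recovered and depth is unknown.

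Values were transformed to log2(FPKM + 0.5). Every gene that reached 1 FPKM in 4 or more tumors entered a limma 3.58.1 fit (R 4.3.3, statmod 1.5.0, mean-variance trend, a term for each of 4 groups, mouse as a block with a correlation of -0.067, 12 residual degrees of freedom). P values were Benjamini-Hochberg adjusted over the 13426 genes kept, with a threshold of 0.05. Nothing says that the flank tumors of a mouse are independent, so the p values measure the spread between tumors of 2 mice per group. With a correlation below 0 the block did not make the tests more cautious. J+V against control gave 4979 calls with the block, 4598 without it and 3801 with 1 mean per mouse. The script was tested on simulated data.

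The members and all gene lists were chosen with earlier results of these data known. All members were named. From each list were named the 4 called genes that differed most between J+V and control tumors, 16 genes fixed by name, and for each member the 3 genes with the most similar profile. The pigment, Schwann cell and endothelial markers at low levels and LUM, DCN and PDGFRB were named as cell type markers. Other lists covered macrophage, erythroid, adipocyte, muscle and keratinocyte markers. Some genes of these lists are not reported here and were left out of the list counts, sums and figures. Positions come from GENCODE on GRCh37, promoters from RefSeq on GRCh38.p14. Figures were drawn with matplotlib 3.10.9 in Python 3.11.15.

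Alternatives were pseudocounts of 0.1 and 1, leaving out the filter, keeping only genes with a mean FPKM of 5 or more, equal sums per tumor, upper quartile and quantile scaling, no mouse block, mouse means, only the groups compared, flank as a term, robust moderation, and leaving out each tumor or mouse. Scaling and left-out mice for the other lists were chosen after seeing the data.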

Additional observations from a re-analysis of the deposited data

Results flagged for a closer look

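Each group of 4 tumors was searched for a tumor far from the other 3, by the gap to its nearest neighbour as a share of the group's range. Of 36 groups (9 genes in 4 groups) 3 exceeded Dixon's 95% critical value for 4 samples, and chance alone flags about 5% of groups. A2M was at 15.2 FPKM in control tumor 5R (share 0.830), where the other control tumors lay between 5.61 and 7.24 FPKM. AQP1 was at 8.49 FPKM in the same tumor (share 0.874), against at most 1.78 FPKM in the others. That tumor also had the highest fibroblast marker sum, 136 FPKM, and the part of these markers was not tested. S100B was at 27.9 FPKM in V tumor 16L (share 0.868), with the other V tumors between 20.2 and 21.2 FPKM. Tumor 16L also had the highest muscle marker sum, 15.8 FPKM, and the part of these markers was not tested.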

How the results depend on the processing

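Counts of genes past the threshold were recomputed under 36 settings, and 244 values stayed within 1.5 times the reported one. The 7 that did not each left out a tumor or mouse: J against control and V against control ran between 0 and 1 (A2M, without control tumor 5R or mouse 5), J+V against J, with CDH19, A2M and RXRG counted as a description, between 3 and 6 (3 without mouse 29), and the departure of J+V between 0 and 1 (S100B, without tumor 34L or mouse 34). Over all settings the adjusted p of S100B ran between 7.89e-05 and 0.0161 against J and between 0.000544 and 0.0487 against V, that of GAP43 against J between 0.0077 and 0.233, that of SOX2 against V between 0.0045 and 0.182, and that of NGFR against J between 0.0120 and 0.395. Leaving out tumors gave the A2M adjusted p a range between 0.00443 and 0.998 for J and between 0.0238 and 0.599 for V against control. The cause was not tested. Changes of sign met only differences that were not past the threshold, with that of A2M in the departure, between -0.074 and 0.69 without a tumor or mouse, among them. Under another scaling or pseudocount, NGFR in J+V against V became -0.045 (common sum). AQP1 became -0.0077 (pseudocount 1), -0.016 (common sum) and -0.064 (quantile) in V against control, 0.013 (upper quartile) and 0.0023 (quantile) in J+V against J, -0.061 (common sum) in J+V against V and 0.066 (quantile) in the departure. SOX2 in J+V against J became 0.0082 (upper quartile) and 0.027 (quantile). Leaving out a tumor or mouse, AQP1 ran between -0.61 and 0.86 in J against control, -0.73 and 0.74 in V against control, -0.20 and 0.39 in J against V, -0.82 and 0.72 in J+V against J, -0.70 and 0.84 in J+V against V and -0.82 and 0.72 in the departure. NGFR ran between -0.41 and 0.52 in J+V against V and -0.88 and 0.044 in the departure, SOX2 between -0.33 and 0.038 in J against control and -0.22 and 0.12 in J+V against J, GAP43 between -0.21 and 0.59 in J against control and -0.48 and 0.013 in J+V against V, and in J against V CDH19 between -0.19 and 0.67 and RXRG between -0.13 and 0.34. Over all genes, the calls in J+V against J were 1164 higher and 2464 lower as deposited, 493 and 2658 with a common sum and 1966 and 1859 after quantile normalization. In J+V against V they were 670 and 1116, then 236 and 2648 with a common sum. Numbers of reads are unknown, so the counting error of RXRG, NGFR and AQP1, near the filter of 1 FPKM, is too. No paired analysis was possible because the replicate numbers come from accession order and the groups share no mouse.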

Other observations

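Marker genes of 5 further cell types were read in the same tumors. Of 7 macrophage markers 5 were below 1 FPKM in every tumor, and the sum ran between 22.9 and 27.2 FPKM in J+V, between 27.0 and 30.1 in J, between 18.7 and 26.6 in V and between 19.1 and 22.9 in control tumors. Of 6 muscle markers 2 were in the fit, the fast myosin genes MYH2 (0.67 ± 0.15) and MYH1 (0.52 ± 0.14). Both were called higher in J+V against control tumors by limma, where 16.6% of all genes were. Their means were 1.56 and 1.92 FPKM in J+V against 0.802 and 1.20 FPKM in control tumors. The MYH1 call was lost after rescaling to a common sum (adjusted p = 0.122, limma) and without mouse 5 or mouse 34. The muscle sum was highest in V tumor 16L, at 15.8 FPKM, against 4.39 FPKM in the other flank of that mouse. The melanocytic antigen gene MLANA was called higher by 0.55 ± 0.16 (6.46 FPKM in J+V against 4.28 FPKM in control tumors, adjusted p = 0.0143), and that call too was lost after rescaling to a common sum (adjusted p = 0.125) and without mouse 5 or mouse 33. No erythroid, adipocyte or keratinocyte marker was called in J+V against control tumors, with 1 marker of each list in the fit.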
